A study of Danio rerio with 6 samples.

Results

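The conjugating enzymes of the larval zebrafish liver were read in 3 classes, the UDP-glucuronosyltransferases (UGT), the glutathione S-transferases (GST) and the sulfotransferases (SULT). Members were the genes whose names start with *ugt*, *sult* or *mgst*, or with *gst* followed by a, k, m, o, p, r, t or z, a rule that uses names and no measured value. The rule found 73 of the 25281 genes listed, which were 30 UGT, 23 GST and 20 SULT genes. Livers came from Tg(fabp10a:pt-Beta-catenin) larvae given the vehicle DMSO, or 1 μM of the PPARα agonist GW7647, for 2 days between 13 and 15 dpf (days post-fertilization), with 3 libraries in each group. Larvae of both groups carried the transgene, in which the promoter of the hepatocyte gene *fabp10a* drives a stable form of β-catenin, so that GW7647 was compared with DMSO in livers with this transgene and not in wild-type ones. The livers of several larvae were pooled for each library. The study calls the libraries independent samples and drew larvae from several clutches, but the sources do not say which clutches went into which library, and p-values measure the spread between these pooled libraries.

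Conjugating enzymes attach a polar group to drugs, hormones, bile acids and products of metabolism, which makes them easier to excrete in bile or urine. UGT proteins sit in the membrane of the endoplasmic reticulum, and typical members transfer glucuronic acid from UDP-glucuronic acid. GST proteins join the tripeptide glutathione to reactive molecules, mostly in the cytosol, while the MGST proteins do so in membranes. SULT proteins are cytosolic and take a sulfate from the donor PAPS. The liver is a main site of all 3 reactions, and in mammals many of these genes respond to nuclear receptors, to the aryl hydrocarbon receptor Ahr or to the stress factor Nrf2.

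Reads counted on exons numbered 19961881 to 25224356 per library. Levels of a gene are given as CPM (exon reads scaled to a common library total, with TMM factors between libraries), and 3 reads, which is what a count of 0 allows, were 0.127 to 0.163 CPM for counting error only. A gene was called a DEG (differentially expressed gene) where it differed by 1.5-fold or more and edgeR's quasi-likelihood test over 15705 genes gave an adjusted p of 0.05 or less. Of these genes, 945 (6.02%) were DEGs, 533 (3.39%) of them higher and 412 (2.62%) lower with GW7647, while 9.06% had such an adjusted p at any fold, and the median log2 fold change was -0.01. The list of 6 known PPARα target genes was higher throughout, with a median log2 fold change of 2.00. Of 10 hepatocyte markers, 5 were DEGs higher, their median log2 fold change was 0.63, and their summed level was 17718 to 20762 CPM with DMSO against 23656 to 26938 CPM with GW7647. *fabp10a* itself, whose promoter drives the transgene, went the other way, from 2386 ± 147 to 1862 ± 129 CPM, with all GW7647 libraries lower (log2 fold change -0.36, adjusted p = 0.050, and 0.067 to 0.18 with a library left out). Of 10 biliary markers, 2 were DEGs lower, with a median of -0.30 and summed levels of 12983 to 14551 against 11231 to 11772 CPM. Of 6 enterocyte markers tested, *rbp2a* was a DEG higher (log2 fold change 0.93, adjusted p = 0.014, and 0.054 without DMSO replicate 2) and the median was 0.75. By DESeq2 2 were DEGs higher, and by edgeR with the replicate number as a block 3 were. Over all 15705 genes, these settings gave 608 and 669 DEGs higher. *fabp2* went from 37.5 ± 16.0 to 79.9 ± 15.4 CPM (1.09, adjusted p = 0.056), while 1 marker, *mep1a.1*, was lower (-0.43, adjusted p = 0.46). The 8 listed summed to 1098 to 1850 CPM with DMSO and to 1628 to 3000 CPM with GW7647. Most of this was *pck1*, which liver also expresses, at 1028 to 1785 and 1492 to 2899 CPM. *fabp6*, a marker of the hind intestine, had at most 1 read in a library. Markers of the exocrine pancreas summed to 71.0 CPM in DMSO replicate 2 and to 10.1 to 19.3 CPM in the other libraries. These marker levels moved with the groups, or with 1 library, beside every result that follows, and their part in the results was not tested. In bulk libraries, a change in the number of cells of a type and a change in RNA per cell cannot be told apart.

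Counted by DEGs, GW7647 was accompanied by higher levels of many UGT genes, of a few GST genes and of few SULT genes. In summed CPM, the classes were 1.26, 1.4 and 1.34 times as high with GW7647, in the same order. Reads were enough to test 57 members, namely 24 UGT, 18 GST and 15 SULT genes, while the other 16 had at most 20 reads in a library. Of the 24 UGT genes tested, 12 were DEGs higher (50%) and 1 was a DEG lower. Some of these genes overlap each other and may share reads, so they are not all separate results. With each overlapping group counted as 1 gene, chosen after seeing the data, 7 of 18 were DEGs higher. On unique exon reads alone, described below, 6 of 21 were. Of the 18 GST genes tested, 4 were DEGs higher (22.2%), and of the 15 SULT genes tested, 2 were (13.3%), beside the 3.39% of all genes. No GST or SULT gene was a DEG lower, by edgeR or by DESeq2, and at an unadjusted p under 0.05 edgeR counted 0 GST genes and 1 SULT gene lower. Over all 15705 genes tested, 1938 were lower and 2000 higher at that unadjusted p. A further 1 UGT, 3 GST and 1 SULT genes were higher with an adjusted p of at most 0.05 but by less than 1.5-fold, which made 23 members higher by adjusted p alone, beside 5.5% of all genes. The median log2 fold change was 0.58 for UGT, 0.40 for GST and 0.27 for SULT genes. Without scaling factors between libraries, the median of all genes moved from -0.01 to -0.23 and those of the classes to 0.36, 0.18 and 0.03. Members with no overlap between the groups and all GW7647 libraries higher numbered 15 UGT, 9 GST and 4 SULT genes, 28 of 57 in all, against 15.7% of all genes. With the replicate number as a block, members higher at an adjusted p of at most 0.05 went from 7 to 12 for GST and from 23 to 32 over the 3 classes, while over all genes such calls went from 864 (5.5%) to 1563 (9.95%), a larger relative rise. DEGs higher with the block were 20 of the 57 members against 4.26% of all genes, and 1 member was lower against 4.45%.

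**Figure D1:**
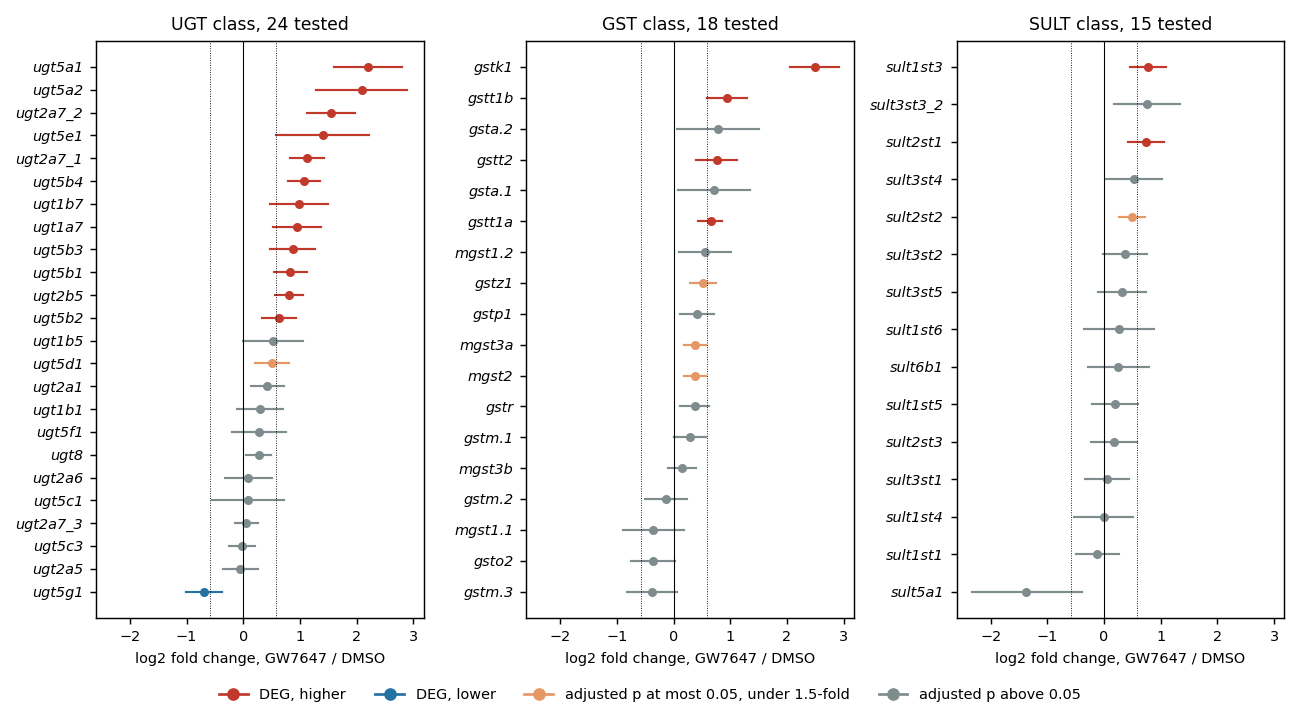
Log2 fold change of GW7647 over DMSO for the 57 members tested, by class, each point a gene from edgeR's fit with its 95% interval as a line, and with colour showing whether the gene was a DEG, passed the adjusted p only or passed neither, and dotted lines at 1.5-fold. UGT genes run from -0.69 to 2.21, GST genes from -0.39 to 2.49 and SULT genes from -1.37 to 0.77.

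Many UGT genes share sequence or overlap other genes, and both can limit how well their reads can be assigned. The deposited tables give, for each gene, its unique exon reads beside all reads on its exons. Unique exon reads are here called reads mapped to 1 place. Whether a read on overlapping genes counted as unique is not given in the sources used here. Over the 6 libraries, 96.3% to 96.8% of all exon reads mapped to 1 place. Among the 57 members tested, 32 had at least 90% such reads and 8 had less than 50%. Repeated on these reads alone, the test kept 12 of the 19 DEGs among the members. The 4 genes *ugt5b1*, *ugt5b2*, *ugt5b4* and *ugt5g1* no longer passed, and *ugt5a1*, *ugt5b3* and *ugt5e1* had too few such reads to be tested. Of those 4, *ugt5b1*, *ugt5b2* and *ugt5b4* had only 5 to 49 such reads per library. Their log2 fold changes on them were 0.73, 0.44 and 0.80 (adjusted p = 0.12, 0.46 and 0.23 by edgeR). *ugt5g1* had 342 to 627 such reads and was at -0.24 (adjusted p = 0.22).

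**Figure D2:**
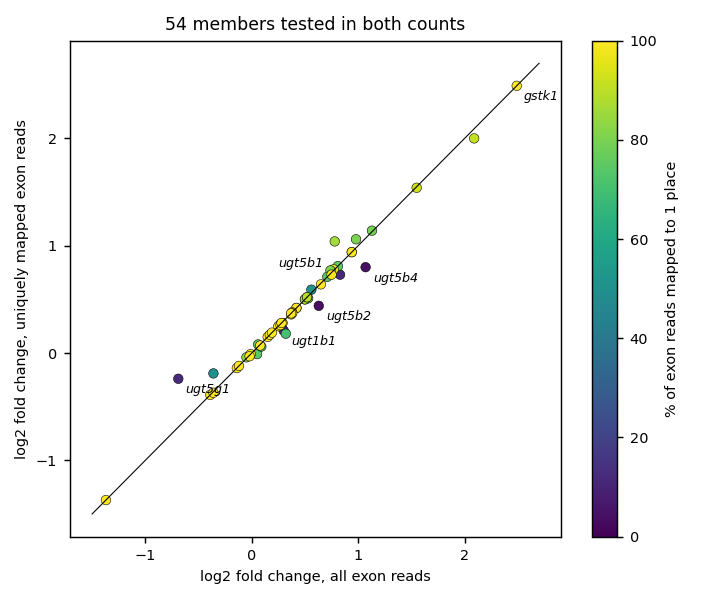
Log2 fold change of each member from reads mapped to 1 place (y axis) against that from all exon reads (x axis), for the 54 members tested with both, with the line of equal values and colour for the percent of reads mapped to 1 place. Most points lie near the line, while *ugt5g1* moves from -0.69 to -0.24.

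The UGT2 family, which in mammals conjugates steroids, bile acids and drugs, had 3 DEGs among its 7 genes, and they lie side by side on chromosome 5. *ugt2a7_1* (chr5:9377005-9391846, plus strand, positions as deposited) was at 60.5, 56.7 and 73.1 CPM with DMSO and at 158, 127 and 130 CPM with GW7647. Its mean rose from 63.4 ± 8.56 to 139 ± 17.2 CPM (SD, n = 3 libraries), with a log2 fold change of 1.13 (SE 0.13) and an adjusted p of 0.0016 from edgeR. The groups did not overlap, and the gene was a DEG under each other processing tried. *ugt2a7_2* (chr5:9405283-9406062) was at 3.04, 3.04 and 4.15 CPM with DMSO and at 11.6, 9.97 and 8.53 CPM with GW7647, a log2 fold change of 1.55 (SE 0.19, adjusted p = 0.0020), and it was likewise a DEG under each other processing tried. *ugt2b5* (chr5:9417409-9422812) was at 52.5, 48.2 and 63.1 CPM with DMSO and at 95.0, 98.1 and 93.7 CPM with GW7647, a log2 fold change of 0.81 (SE 0.11, adjusted p = 0.0038). It too had separate groups and was a DEG with each library left out, but without scaling factors its log2 fold change was 0.58, below 1.5-fold.

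The last gene of this run on chromosome 5 differed from its neighbours. *ugt2a7_3* (chr5:9428876-9438370), which starts 6064 bases after *ugt2b5* ends, was at 43.3, 41.9 and 40.7 CPM with DMSO and at 47.1, 40.8 and 42.8 CPM with GW7647. The groups overlapped, and its log2 fold change was 0.05 with a 95% interval of -0.15 to 0.26 (adjusted p = 0.77), so a change of the size of *ugt2b5* lies outside that interval. Between 74.2% and 92.5% of the reads of these 4 genes mapped to 1 place, and on those reads alone the log2 fold changes were 1.14, 1.54, 0.81 and -0.01. A second run of UGT2 genes lies farther along chromosome 5, and 0 of its 3 members passed by edgeR. *ugt2a1*, the most abundant of these, was at 107, 89.7 and 116 CPM with DMSO and at 135, 127 and 157 CPM with GW7647, a log2 fold change of 0.42 (adjusted p = 0.070, 0.0060 with the replicate number as a block and 0.025 by DESeq2). *ugt2a5* and *ugt2a6* were at -0.05 and 0.09 on the same scale. The UGT2 genes together summed to 284 ± 29.8 CPM with DMSO and to 444 ± 22.7 CPM with GW7647, 1.56 times as much.

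UGT1 genes, of which the mammalian members conjugate bilirubin and many drugs, were fewer in the tests, with 4 of 7 measured well enough and 2 DEGs. *ugt1a7* (chr9:9969987-10003782, minus strand) was at 69.7, 50.6 and 82.9 CPM with DMSO and at 139, 105 and 146 CPM with GW7647, and its mean went from 67.7 ± 16.2 to 130 ± 21.8 CPM. The log2 fold change was 0.94 (SE 0.19, adjusted p = 0.018), and the groups did not overlap. Without GW7647 replicate 1 or 3 the adjusted p was 0.051 or 0.058 at log2 fold changes of 0.89 and 0.85. All of its reads mapped to 1 place, to the precision of 3 digits.

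The other UGT1 genes, *ugt1b1* to *ugt1b5* and *ugt1b7*, overlap each other on chromosome 11 (chr11:30295582-30330015, plus strand). Their listed spans all reach to the same region at the end, a layout known from the mammalian UGT1 locus, in which alternative first exons are joined to shared last exons. *ugt1b7* rose from 1.84, 1.37 and 1.88 CPM to 3.97, 3.29 and 2.80 CPM, a log2 fold change of 0.98 (SE 0.23, adjusted p = 0.030). This call rested on most of the libraries, since the adjusted p was 0.058 to 0.094 with any one of them left out other than GW7647 replicate 3. *ugt1b5* was at 21.0, 13.1 and 12.9 CPM with DMSO and at 29.8, 20.4 and 17.7 CPM with GW7647 (log2 fold change 0.53, adjusted p = 0.20, and 0.0044 with the block). *ugt1b1* had a log2 fold change of 0.30 (adjusted p = 0.34), and 10.8% of its reads mapped to 1 place. The other genes of the locus, *ugt1b2*, *ugt1b3* and *ugt1b4*, had at most 20 reads in a library, and *ugt1b2* had 0 reads in the DMSO libraries and 1, 5 and 3 in the GW7647 libraries, near the limit of detection. Summed over its 6 genes, the locus had 1366, 999 and 1053 reads with DMSO and 1568, 1306 and 1249 with GW7647, and this sum was not a DEG (log2 fold change 0.41, SE 0.19, adjusted p = 0.23).

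UGT5 is a family known from fish, and it held both the greatest relative rises and the only DEG lower of the class. Of its 15 genes, 12 were tested, 7 were DEGs higher and 1 was a DEG lower, beside 3.39% and 2.62% of all genes. The *ugt5a* genes overlap each other, as do the *ugt5b* genes, so the 7 are not separate results. *ugt5a1* (chr25:29407671-29415382, minus strand) had 24, 20 and 12 reads with DMSO and 69, 78 and 94 with GW7647, or 0.828 ± 0.291 and 3.84 ± 0.131 CPM. Its log2 fold change of 2.21 (SE 0.26, adjusted p = 0.0020) was the highest of the UGT genes tested. *ugt5a2*, whose span covers nearly all of that of *ugt5a1*, had 8, 9 and 6 reads with DMSO and 34, 21 and 36 with GW7647 (log2 fold change 2.09, SE 0.35, adjusted p = 0.0094). For both genes the groups were apart, and both were DEGs with each library left out. Of the reads of *ugt5a1*, 5.39% mapped to 1 place, against 91.2% of those of *ugt5a2*. Added up, they had 32, 29 and 18 reads with DMSO and 103, 99 and 130 with GW7647, a log2 fold change of 2.18 (SE 0.24, adjusted p = 0.0012).

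The 5 *ugt5b* genes also overlap, on the minus strand of chromosome 1 (chr1:9626277-9652725), and 3.36% to 11.5% of their reads mapped to 1 place. The 4 that were tested, *ugt5b1*, *ugt5b2*, *ugt5b3* and *ugt5b4*, were DEGs higher by 0.83, 0.63, 0.87 and 1.07 on the log2 scale, with adjusted p-values of 0.0062, 0.021, 0.017 and 0.0016. In CPM, *ugt5b4* was at 7.50, 6.16 and 7.52 with DMSO and at 14.5, 15.4 and 14.7 with GW7647, and *ugt5b2* was at 26.1, 25.0 and 22.5 against 45.1, 37.1 and 32.2. *ugt5b1* had 191, 232 and 197 reads with DMSO and 336, 332 and 340 with GW7647, and *ugt5b3* had 173, 123 and 181 against 256, 259 and 288. In none of the 4 did the groups overlap, but reads of one gene could have been counted for another, so the 4 are not separate results. *ugt5b2* missed the threshold (0.051 to 0.068) when any one of DMSO replicates 2 and 3 and GW7647 replicates 1 and 2 was left out, and *ugt5b3* did not pass without GW7647 replicate 1 or 2 (0.051 and 0.053). The reads of all 5 genes summed to 1099, 1089 and 1071 with DMSO and to 1695, 1689 and 1747 with GW7647. That sum rose by a log2 fold change of 0.78 (SE 0.10, adjusted p = 0.0031). With each overlapping group counted as 1 gene, a choice made after seeing the data, the UGT class held 7 DEGs higher among 18 tested. Over all genes, this setting gave 528 DEGs higher among 15699 tested.

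*ugt5g1* (chr7:22688781-22696987, plus strand) was the most abundant UGT gene per length and the only DEG lower of the class. It was at 211, 272 and 222 CPM with DMSO and at 122, 157 and 158 CPM with GW7647, with means of 235 ± 32.6 and 145 ± 20.6 CPM. The log2 fold change was -0.69 (SE 0.14, 95% interval -1.01 to -0.38, adjusted p = 0.018), and every GW7647 library was below every DMSO library, as in 15.3% of all genes. The call was lost without DMSO replicate 2 (-0.57, adjusted p = 0.052) and without GW7647 replicate 1 (-0.58, adjusted p = 0.051). Of its reads, 12.0% mapped to 1 place, and these numbered 541, 627 and 532 with DMSO and 342, 468 and 528 with GW7647, with a log2 fold change of -0.24 (adjusted p = 0.22). The gene lies within the span of *BX470211.2* on the opposite strand, which had 0 reads in each library. Where the other reads of *ugt5g1* also map was not tested.

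*ugt5e1* (chr8:14058646-14060244, plus strand) rose from 16, 51 and 56 reads to 71, 100 and 130 reads, a log2 fold change of 1.40 (SE 0.36, adjusted p = 0.045). None of its 424 reads mapped to 1 place only, and it lies within the span of *dedd* on the opposite strand, a gene at 684 to 801 reads per library with a log2 fold change of 0.14 (adjusted p = 0.44). The library kit kept strand information per the labels, but whether counting used it is not given in the sources used here. Reads may therefore be shared between the 2 genes. Over the 6 libraries, 247 reads of *dedd* did not map to 1 place only, fewer than the 424 of *ugt5e1*. Where the reads of *ugt5e1* also map was not tested. The call also depended on 5 of the 6 libraries, with an adjusted p of 0.051 to 0.13 when any one other than DMSO replicate 1 was left out, and *ugt5e1* is reported as uncertain. *ugt5d1*, all of whose reads mapped to 1 place, was at 9.21, 10.4 and 9.74 CPM with DMSO and at 14.7, 15.1 and 11.8 CPM with GW7647. It was higher by 0.50 on the log2 scale (SE 0.13, adjusted p = 0.046), less than 1.5-fold, and its adjusted p was 0.083 to 0.14 without any one library other than GW7647 replicate 3, without which it was a DEG (0.61, adjusted p = 0.037). *ugt5c1*, *ugt5c3* and *ugt5f1* had log2 fold changes of 0.08, -0.02 and 0.28 and did not pass, and *ugt5b5*, *ugt5c2* and *ugt5g2* were not tested. *ugt8*, whose mammalian counterpart makes the myelin lipid galactosylceramide, was at 76.1, 75.8 and 82.1 CPM with DMSO and at 85.6, 102 and 94.7 CPM with GW7647 (log2 fold change 0.27, adjusted p = 0.12).

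**Figure D3:**
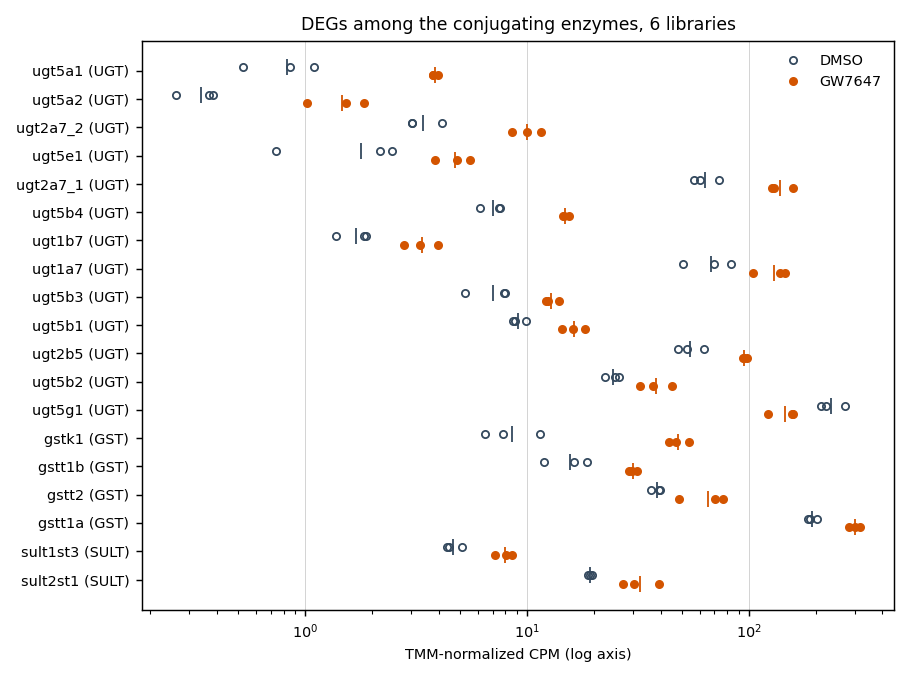
Level of each member that was a DEG, in CPM on a log axis, in the 3 DMSO and 3 GW7647 libraries, with each point a library. In each of the 19 genes the groups are apart, and *ugt5g1* is the one with lower levels with GW7647. The genes were picked by the test on these same libraries, so groups that lie apart are no further support. Over all genes tested, the groups did not overlap in 31%.

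Counted by all exon reads, the UGT genes summed to 787, 778 and 827 CPM with DMSO and to 1031, 972 and 1022 CPM with GW7647, 1.26 times as much. Without *ugt5g1* the sums were 575, 506 and 604 against 909, 815 and 865 CPM, 1.54 times as much. In RPKM, which allows levels of genes of different length to be set side by side, *ugt5g1* took 32.4% of the class with DMSO and 15.9% with GW7647. These shares rest on all reads of *ugt5g1*, and on the 12.0% of them that mapped to 1 place its fall did not pass the test. *ugt2a7_1* went from 9.17% to 15.9% and *ugt2b5* from 10.9% to 15.2% of the class. Averaged over the 6 libraries, the 5 most abundant UGT genes were *ugt5g1* at 69.8, *ugt2b5* at 38.6, *ugt2a7_1* at 37.2, *ugt2a1* at 21.7 and *ugt2a7_3* at 20.1 RPKM. The relatively strongest rises of the class, in *ugt5a1* and *ugt5a2*, were thus in genes of low level, at 1.03 and 0.33 RPKM.

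**Figure D4:**
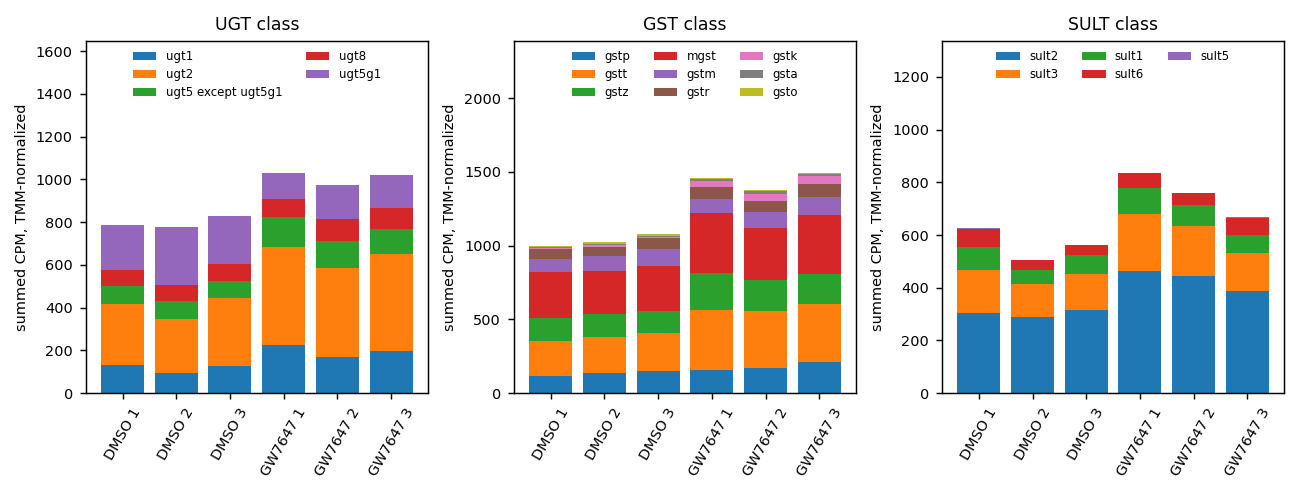
Summed CPM of the UGT, GST and SULT genes in each of the 6 libraries, stacked by subfamily, with *ugt5g1* drawn apart from the other *ugt5* genes. The GST sum goes from 997 to 1080 CPM with DMSO to 1379 to 1494 CPM with GW7647, and in the UGT panel the *ugt5g1* block shrinks while the others grow.

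Among the GST genes, *gstk1* changed most. It belongs to the kappa class, whose mammalian protein is found in mitochondria and peroxisomes. *gstk1* (chr16:32009203-32013929, minus strand) had 141, 266 and 178 reads with DMSO and 803, 969 and 1264 reads with GW7647. These were 6.49, 11.4 and 7.78 CPM against 43.6, 46.9 and 53.6 CPM, with means of 8.55 ± 2.53 and 48.1 ± 5.09 CPM. The lowest GW7647 library was well above the highest DMSO library, and the log2 fold change was 2.49 (SE 0.19, 95% interval 2.05 to 2.92, adjusted p = 1.7e-04), a 5.61-fold rise and the highest value of the 57 members tested. All its reads mapped to 1 place at the given precision, and it was a DEG under each other processing tried. The other kappa genes, *gstk2*, *gstk4_1* and *gstk4_2*, had at most 1 read in a library, so nearly all kappa reads of these livers were counted for *gstk1*.

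The theta class, which conjugates small halogenated and epoxide compounds, was the only GST subfamily of more than 1 gene in which each gene was a DEG. *gstt1a* (chr8:30787111-30791266, minus strand), the second most abundant GST gene, was at 184, 188 and 204 CPM with DMSO and at 302, 282 and 318 CPM with GW7647. Its log2 fold change was 0.65 (SE 0.09, adjusted p = 0.0050), or 1.56-fold, just past the fold threshold. *gstt1b* (chr21:15713097-15720534, plus strand) was at 11.9, 16.3 and 18.6 CPM with DMSO and at 29.7, 31.4 and 28.8 CPM with GW7647 (log2 fold change 0.94, SE 0.15, adjusted p = 0.0081), and it was a DEG under each other processing tried. *gstt2* (chr5:10046643-10056341, plus strand) was at 39.5, 39.7 and 36.4 CPM with DMSO and at 76.6, 70.4 and 48.6 CPM with GW7647 (log2 fold change 0.76, SE 0.16, adjusted p = 0.021). In all 3 genes the groups were apart. The level of *gstt2* in GW7647 replicate 3 lay nearer to the DMSO libraries than to the other GW7647 libraries, and its adjusted p was 0.058 to 0.074 with DMSO replicate 2, DMSO replicate 3, GW7647 replicate 1 or GW7647 replicate 2 left out. Without scaling factors *gstt1a* and *gstt2* were higher by 0.42 and 0.53 on the log2 scale, less than 1.5-fold. The end of *gstt2* overlaps that of *chek2* on the opposite strand, which had 87 to 212 reads per library. Together the theta genes went from 246 ± 12.1 to 396 ± 12.3 CPM, 1.61 times as much.

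Smaller differences that passed the adjusted p were seen in *gstz1*, *mgst2* and *mgst3a*. *gstz1*, whose protein is the maleylacetoacetate isomerase of tyrosine breakdown, was at 157, 155 and 149 CPM with DMSO and at 245, 209 and 207 CPM with GW7647 (log2 fold change 0.52, SE 0.10, adjusted p = 0.015). *mgst2*, a membrane-bound enzyme that in mammals can make leukotriene C4, was at 72.8, 72.2 and 77.0 CPM against 93.5, 97.0 and 99.1 CPM (0.38, SE 0.08, adjusted p = 0.024). *mgst3a* was at 31.3, 33.0 and 34.3 CPM against 41.4, 42.1 and 44.6 CPM (0.38, SE 0.09, adjusted p = 0.030). The libraries of each group lay close together in the latter 2 genes, and the groups did not overlap in any of the 3. With a library left out, *gstz1* still passed, while *mgst2* passed only without DMSO replicate 3 (0.046, others 0.055 to 0.084) and *mgst3a* in no case (0.052 to 0.10).

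The other GST genes did not pass the test by edgeR. *gstp1*, of the pi class and the most abundant GST gene at 158 RPKM, was at 118, 137 and 149 CPM with DMSO and at 159, 171 and 209 CPM with GW7647. Its groups did not overlap, with a log2 fold change of 0.42 (95% interval 0.12 to 0.72) and an adjusted p of 0.084, or 0.0066 with the block and 0.031 by DESeq2. *gstr*, of the rho class known from fish, had a log2 fold change of 0.37 (adjusted p = 0.075, 0.011 with the block and 0.044 by DESeq2), and it passed without DMSO replicate 3 (0.47, adjusted p = 0.049). The mu genes lie in a row on chromosome 8, and *gstm.1*, *gstm.2* and *gstm.3* had log2 fold changes of 0.29, -0.14 and -0.39 (adjusted p = 0.19, 0.65 and 0.25). With the block, *gstm.1* and *gstm.3* had adjusted p-values of 0.033 and 0.014, in opposite directions. *gstm.3*, the lowest GST value, was at 31.2, 38.0 and 45.1 CPM against 21.2, 31.0 and 35.1 CPM, and the mu genes together were at 104 ± 15.5 and 106 ± 14.1 CPM.

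The alpha genes *gsta.1* and *gsta.2* were higher by 0.71 and 0.78 on the log2 scale but varied between libraries (adjusted p = 0.16 for both). *gsta.1* was at 6.31, 9.62 and 7.25 CPM with DMSO and at 9.40, 18.8 and 9.63 CPM with GW7647, where replicate 2 was highest in both groups, and with the block it was a DEG (0.66, adjusted p = 0.011). *mgst1.2* was at 111, 64.3 and 92.4 CPM with DMSO and at 154, 103 and 136 CPM with GW7647, and here replicate 2 was lowest in both groups. It had a log2 fold change of 0.56 (adjusted p = 0.13, and 0.0016 with the block), and 52.4% of its reads mapped to 1 place. *mgst3b*, at 86.8 RPKM among the 5 most abundant, had a log2 fold change of 0.15 (95% interval -0.10 to 0.39), which became -0.07 without scaling factors. *gsto2*, of the omega class, and *mgst1.1* were both at -0.36 (adjusted p = 0.23 and 0.40). Without scaling factors *gsto2* was lower by edgeR with an adjusted p of 0.047, at a log2 fold change of -0.58, less than 1.5-fold. *gsto1* and *gstp2* had at most 5 reads in a library. The GST genes summed to 997, 1024 and 1080 CPM with DMSO and to 1458, 1379 and 1494 CPM with GW7647, 1.4 times as much. The order of the 5 most abundant was *gstp1*, *gstt1a*, *gstz1*, *mgst3b* and *mgst2*, and these took 68.6% of the class in RPKM with DMSO and 67.5% with GW7647.

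Among the SULT genes, the family of hydroxysteroid sulfotransferases SULT2 held 1 DEG and the largest share of the reads. *sult2st1* (chr12:630295-645972, minus strand) was at 18.8, 19.3 and 19.6 CPM with DMSO and at 30.4, 39.4 and 27.1 CPM with GW7647. The log2 fold change was 0.74 (SE 0.14, adjusted p = 0.014), with a spread of 0.402 CPM (SD) in the DMSO and of 6.35 CPM in the GW7647 libraries. Without GW7647 replicate 2, the highest library, it was 0.58 (adjusted p = 0.030), below 1.5-fold. *sult2st2* (chr12:648334-656540) lies 2362 bases from it on the same strand. *sult2st2* was at 281, 265 and 292 CPM with DMSO and at 428, 399 and 354 CPM with GW7647. Its log2 fold change was 0.50 (SE 0.10, adjusted p = 0.020), below 1.5-fold, and its adjusted p was 0.057, 0.068 and 0.073 without DMSO replicate 2, GW7647 replicate 1 and GW7647 replicate 2. The groups of both genes were apart, and 79.9% and 86.9% of their reads mapped to 1 place. At 289 RPKM, *sult2st2* alone made up 57.2% of the class with DMSO and 59.7% with GW7647. *sult2st3*, on another chromosome, was at 5.06 ± 0.900 and 5.69 ± 0.651 CPM (log2 fold change 0.17, adjusted p = 0.61), and its value was -0.05 without scaling factors.

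SULT1 enzymes act on phenols in mammals, and 1 of the 5 tested was a DEG. *sult1st3* (chr8:46559332-46581448, minus strand) had 95, 104 and 116 reads with DMSO and 148, 176 and 170 with GW7647, or 4.63 ± 0.382 and 7.93 ± 0.662 CPM. The groups did not overlap (log2 fold change 0.77, SE 0.14, adjusted p = 0.014), and without GW7647 replicate 2 the adjusted p was 0.056. Its neighbour *sult1st1* was at 5.60 ± 0.980 and 5.16 ± 0.340 CPM (log2 fold change -0.12, adjusted p = 0.72), and *sult1st2*, *sult1st7* and *sult1st9*, in the same stretch of chromosome 8, had too few reads to test. *sult1st6*, the most abundant of the family at 19.4 RPKM, was at 40.0, 18.6 and 35.0 CPM with DMSO and at 49.0, 32.1 and 31.6 CPM with GW7647, with wide overlap (log2 fold change 0.27, 95% interval -0.35 to 0.88). *sult1st4* and *sult1st5* were at -0.01 and 0.19 on the log2 scale, the latter at -0.04 without scaling factors.

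Of the 5 SULT3 genes tested, 0 passed by edgeR or DESeq2 and 2 were higher at an unadjusted p under 0.05 by edgeR. Over all genes, 2000 of 15705 tested were higher at that unadjusted p. *sult3st2*, second in the class at 95.3 RPKM, was at 139, 99.6 and 116 CPM with DMSO and at 182, 158 and 119 CPM with GW7647, where replicate 3 fell among the DMSO libraries (log2 fold change 0.37, 95% interval -0.02 to 0.76, adjusted p = 0.22). *sult3st3_2* was at 2.99, 4.15 and 1.88 CPM against 5.11, 5.23 and 4.88 CPM, with groups apart and a log2 fold change of 0.75 (adjusted p = 0.11). It was a DEG with the block (0.80, adjusted p = 0.032) and without DMSO replicate 2 (1.06, adjusted p = 0.050). *sult3st4* had a log2 fold change of 0.52 (adjusted p = 0.17, and 0.017 with the block), *sult3st5* of 0.32 and *sult3st1* of 0.06, the last at -0.17 without scaling factors.

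*sult5a1* had the lowest value of the members tested. It was at 35, 53 and 23 reads with DMSO and at 18, 7 and 14 reads with GW7647, or 1.61, 2.27 and 1.01 against 0.978, 0.339 and 0.594 CPM. The groups were apart by a narrow gap, with a log2 fold change of -1.37 (SE 0.43, 95% interval -2.34 to -0.39) and an adjusted p of 0.085. Without scaling factors it was -1.58 with an adjusted p of 0.032, a DEG lower. *sult6b1*, at 30.1 RPKM, was at 67.5, 35.2 and 37.8 CPM with DMSO and at 55.9, 45.9 and 65.5 CPM with GW7647 (log2 fold change 0.25, adjusted p = 0.56). DMSO replicate 1 lay apart from the other DMSO libraries, and without it *sult6b1* was a DEG higher (0.62, adjusted p = 0.050). *sult4a1*, whose mammalian counterpart is expressed in brain, had at most 1 read in a library. The SULT genes summed to 625, 505 and 563 CPM with DMSO and to 836, 758 and 667 CPM with GW7647, 1.34 times as much, and the 5 most abundant took 90.2% and 91.5% of the class in RPKM.

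Each class has its own main donor molecule, and genes of the supply and turnover of the donors were read beside it. UDP-glucuronic acid is made from glucose 1-phosphate, the product of phosphoglucomutase, through UDP-glucose. Of 7 genes listed for it, 3 were DEGs higher and 0 lower, beside 3.39% and 2.62% of all genes, with a median log2 fold change of 0.34, or 0.12 without scaling factors. *ugp2a*, which makes UDP-glucose, was at 226, 161 and 211 CPM with DMSO and at 531, 399 and 480 CPM with GW7647 (log2 fold change 1.24, SE 0.15, adjusted p = 0.0022). *pgm1*, the phosphoglucomutase, was at 165, 157 and 188 CPM against 314, 266 and 299 CPM (0.78, SE 0.11, adjusted p = 0.0038). *ugdh*, which oxidizes UDP-glucose to UDP-glucuronic acid, was at 35.1, 27.1 and 30.9 CPM against 42.9, 44.4 and 53.1 CPM (0.59, SE 0.13, adjusted p = 0.022). The groups were apart in these 3 genes, but *ugdh* had an adjusted p of 0.056 to 0.072 when replicate 2 or 3 of either group was left out. *gusb*, the lysosomal enzyme that removes glucuronic acid, was at 0.34 (adjusted p = 0.049, and 0.060 to 0.14 with each library left out), and *ugp2b* and the transporter genes *slc35d1a* and *slc35d1b* were at -0.01, -0.05 and 0.23.

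PAPS is made from sulfate and ATP, and of 8 genes tested for its supply and use 1, the sulfate transporter gene *slc26a2*, was a DEG higher (12.5%, beside 3.39% of all genes). It was at 25.1, 28.2 and 31.3 CPM with DMSO and at 43.3, 54.7 and 78.1 CPM with GW7647 (log2 fold change 1.06, SE 0.20, adjusted p = 0.014). The PAPS synthase genes *papss1*, *papss2a* and *papss2b* were at 0.15, 0.44 and 0.07 (adjusted p = 0.65, 0.14 and 0.80). Of these, *papss2a* had an adjusted p of 0.019 with the block, and its log2 fold change was 0.66 (adjusted p = 0.023) without DMSO replicate 1 and 0.28 without DMSO replicate 2. The list had a median of 0.20, which became -0.02 without scaling factors, against -0.23 for all genes.

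Of 11 genes of glutathione supply and breakdown, 1 was a DEG higher and 1 a DEG lower, beside 3.39% and 2.62% of all genes. Their median of -0.01 equalled that of all genes. By DESeq2, and by edgeR with the block, 1 was a DEG higher and 2 were DEGs lower. Over all 15705 genes, DESeq2 gave 608 DEGs higher and 504 lower, and edgeR with the block gave 669 and 699. *slc7a11* had 31, 47 and 18 reads with DMSO and 13, 11 and 7 with GW7647 (log2 fold change -1.48, adjusted p = 0.072, and 0.017 with the block). The synthesis genes *gclm* and *gss* and the reductase gene *gsr* were at 0.09, -0.01 and -0.01, each with an adjusted p of 0.67 or more. *chac1*, whose protein degrades glutathione, was at 407, 584 and 489 CPM with DMSO and at 995, 1003 and 930 CPM with GW7647 (log2 fold change 0.99, SE 0.13, adjusted p = 0.0034). *ggt1a*, of a family that cleaves glutathione outside cells, was at 55.3, 9.45 and 6.90 CPM with DMSO and at 4.40, 2.28 and 1.82 CPM with GW7647 (log2 fold change -3.09, adjusted p = 0.045). DMSO replicate 1 stood far above the others, and without it *ggt1a* had a log2 fold change of -1.54 (adjusted p = 0.032), while without DMSO replicate 2 or any one of the GW7647 libraries its adjusted p was 0.051 to 0.14.

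Regulators known from mammals to act on conjugating enzymes were read as a list of 17 genes, of which 2 were DEGs higher and 0 lower (11.8% higher, beside 3.39% of all genes). The median log2 fold change was 0.21, and -0.02 without scaling factors. *nfe2l2b*, one of the zebrafish copies of Nrf2, was at 1.93, 1.41 and 1.75 CPM with DMSO and at 2.99, 3.49 and 4.07 CPM with GW7647 (log2 fold change 1.05, adjusted p = 0.020). Another listed copy of Nrf2, *nfe2l2a*, had 4301 to 5286 reads per library, while *nfe2l2b* had 33 to 96. *nfe2l2a* did not pass (log2 fold change 0.13, adjusted p = 0.57), so most Nrf2 reads came from a copy with no DEG call. The other DEG, *hnf4a*, a hepatocyte transcription factor, was at 97.6, 91.2 and 124 CPM against 185, 164 and 144 CPM (0.66, adjusted p = 0.023). The calls of both depended on libraries, with an adjusted p of 0.053 to 0.071 for *nfe2l2b* when replicate 2 or 3 of either group was left out, and of 0.060 to 0.073 for *hnf4a* when replicate 1 or 2 of either group was. The bile acid receptor gene *nr1h4* was at 0.37 (adjusted p = 0.049), the xenobiotic receptor gene *nr1i2* at 0.44 (0.076, and 0.0086 with the block) and *pparaa*, a zebrafish copy of PPARα, at -0.29 (0.22). *nr1h4* did not pass with any one library left out (0.052 to 0.14), whereas *nr1i2* was at 0.59 (0.025) without DMSO replicate 1. Of 7 other target genes of Nrf2 or Ahr that were tested, 0 were DEGs by edgeR, while by DESeq2, and by edgeR at an unadjusted p under 0.05, 1 was higher and 1 was lower, and their median was 0.08. Over all 15705 genes, DESeq2 gave 608 DEGs higher and 504 lower. At the unadjusted p of edgeR, 2000 genes were higher and 1938 lower. Among the 7 target genes, *nqo1* was at 387, 345 and 251 CPM with DMSO and at 795, 442 and 501 CPM with GW7647 (log2 fold change 0.82, adjusted p = 0.059, and 0.0037 with the block). *cyp1a* was at 0.43 (adjusted p = 0.21, and 0.019 with the block). *hmox1a* went the other way, from 27.6 ± 7.86 to 17.1 ± 2.96 CPM (-0.69, adjusted p = 0.076, and 0.0049 with the block).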

How the data were processed

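RNA with poly(A) tails from dissected livers was sequenced in 6 libraries. Mapping and counting on exons were done by the authors in CLC Genomics Workbench, and the counts they deposited are whole numbers without normalization. RPKM values in the deposited tables relate the same counts to exon length and library total, and fold changes were taken from them only as an alternative. The genome build, the software version, the use of strand and the treatment of reads that map to several places are not given in the sources used here, and these settings could change the counts of genes that share sequence or overlap. Positions are as deposited, counted from 1, and no sequences were printed because no file used here holds them.

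Total exon reads of all 6 libraries were compared with edgeR 4.0.16 (glmQLFit and glmQLFTest, TMM, filterByExpr with a minimum count of 10, no covariate) in R 4.3.3, with Benjamini-Hochberg adjustment over 15705 genes, and intervals cover 95%. An exact permutation test of 3 against 3 libraries cannot go below p = 0.1, so none was used. The alternatives were filters of at least 1 read in any or 10 reads in every library, no scaling factor, DESeq2 1.42.0, the replicate number as a block, reads mapped to 1 place, limma 3.58.1 on log2(RPKM + 1) and log2(RPKM + 0.1), each library left out in turn, and, chosen after seeing the data, overlapping members summed. Deviations from the group means correlated at 0.161 to 0.324 for the 3 pairs of libraries with the same number and at -0.239 to 0.0754 for the 6 others. Deviations within a group cancel for each gene, so positive values in some pairs draw the others down. The ranges are thus not independent of each other. The replicate number was therefore tried as a block, as an alternative only, from this check of the same data alone. Neither the labels nor the paper say what libraries of the same number share. No 2 of the 6 libraries, in 15 pairs, held identical counts. The scripts were tested on simulated data. Plots were drawn with matplotlib 3.10.9 in Python 3.11.15.

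The members and the gene lists were chosen with earlier results of these data known, so counts and medians of a class are given with no test. Of 109 list entries, 2 were not found and 2 were found through a table of gene identifiers. Named in full are members that were DEGs or had an adjusted p of at most 0.05. Also named are the 5 of each class highest by mean RPKM, the highest and lowest fold change of each class, members within 200 kb of a DEG member, members with 3 reads or fewer in every library of a group, and others where a subfamily is described. Lists of erythrocyte markers (0 of 3 tested were DEGs by edgeR or DESeq2, 0 at an unadjusted p under 0.05) and of macrophage and neutrophil markers (*mpx* and *mmp9* of 7 were DEGs lower) served only to look for other cells. No exocrine pancreas marker of 7 tested was a DEG by edgeR or DESeq2, or passed at an unadjusted p under 0.05.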

Additional observations from a re-analysis of the deposited data

How the results depend on the processing

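The UGT class had 12 DEGs higher and 1 lower, and among the settings that kept all libraries these counts moved by over 1.5 times with reads mapped to 1 place (6 higher, 0 lower), limma on log2(RPKM + 1) (7 higher) and overlapping members summed (7 higher). Its median log2 fold change of 0.58 was 0.74 with at least 1 read in any library, 0.36 without scaling factors, 0.44 with reads mapped to 1 place, 0.31 and 0.36 with limma on log2(RPKM + 1) and log2(RPKM + 0.1), and 0.42 with members summed. The 4 GST DEGs became 2 without scaling factors and 2 with each limma setting, and the median of 0.40 became 0.46 with at least 1 read in any library, 0.18 without scaling factors, and 0.19 with each limma setting. The 2 SULT DEGs higher became 0 without scaling factors and 0 with each limma setting, where without scaling factors and with log2(RPKM + 0.1) 1 SULT gene, *sult5a1*, was a DEG lower, and the median of 0.27 became 0.03, 0.09 and 0.10. RPKM values carry no scaling factor either. With a library left out, UGT genes had 7 to 11 DEGs higher and 0 to 1 lower with medians of 0.50 to 0.78, GST genes 3 to 4 higher with 0.36 to 0.48, and SULT genes 0 to 3 higher with 0.24 to 0.51. The counts moved by over 1.5 times without GW7647 replicate 1 (UGT 7 higher and 0 lower), DMSO replicate 2 (UGT 0 lower) and GW7647 replicate 2 (SULT 0 higher). With the replicate number as a block, 12 UGT, 5 GST and 3 SULT genes were DEGs higher, and it ended no call among the 24 members that passed. All 24 also passed with DESeq2, and 17 did so without scaling factors. The DEGs *gstk1*, *gstt1b*, *ugt2a7_1* and *ugt2a7_2* were called under all 14 settings named in the methods, the leaving out of each library included and the summing of overlapping members apart, and 10 members were DEGs with each library left out. Over all genes, the 533 DEGs higher and 412 lower became 321 and 1511 without scaling factors, 260 and 563 with log2(RPKM + 1), 316 and 1283 with log2(RPKM + 0.1), and 669 and 699 with the block. Without DMSO replicate 2 there were 189 DEGs lower, without GW7647 replicate 1, 2 or 3 there were 225, 194 and 261. Depth limits the members with few reads: 16 could not be tested, and 6 of them had at most 3 reads in every library.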
